A study of Homo sapiens with 13 samples.

Results

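RUNX1-only regions at start sites are RUNX1 peaks that overlapped no PTBP1 peak and came within 1 kb of the 5′ end of an annotated gene. They were selected on the peak calls of both targets, so their strength and their lack of a PTBP1 peak describe the selection and are given without a test. There were 911 such regions among the 7688 RUNX1 peaks (11.8%). They made up 29.8% of the 3057 RUNX1 peaks without a PTBP1 peak and 22.1% of the 4129 RUNX1 peaks at a start site. All libraries came from MOLM-13, a cell line established from human acute myeloid leukemia, and the labels name no treatment, engineered change or time point. Of the 13 libraries, 4 each targeted PTBP1 and RUNX1, as biological replicates 1 and 2 in CUT&Tag and again in CUT&Run. The others were 2 for the repressive histone mark H3K27me3 and 3 IgG controls. A single RUNX1 and a single PTBP1 peak list on hg38 were used, and they carry no replicate, so no value below has a spread between cultures.

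RUNX1 is the DNA-binding subunit of core-binding factor. Its Runt domain contacts a short sequence, and the partner protein CBFB stabilizes that contact. In blood cells RUNX1 acts at promoters and distal enhancers of lineage genes, often beside ETS, GATA and CEBP family factors. PTBP1 is an RNA-binding splicing regulator with no DNA-binding domain of its own. In CUT&Tag, an antibody brings a transposase to the target and the released fragments mark the bound site, whereas a nuclease does the cutting in CUT&Run. Many human promoters are CpG-rich, and factors such as SP1 bind GC boxes within them.

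The sequence that Runt domain proteins recognize was sought as TGCGGT or TGTGGT on either strand, and it is printed in capitals in the hg38 plus-strand windows below, 5′ to 3′. These regions were chosen to show the range among strong regions and among genes of the blood lineage. Windows run 50 bases either side of the summit, or are shortened to 30 bases around the motif where an annotated UTR lies in the window. ACCGCA and ACCACA in capitals are the same motif on the minus strand.
CFP, chrX:47630319-47630419: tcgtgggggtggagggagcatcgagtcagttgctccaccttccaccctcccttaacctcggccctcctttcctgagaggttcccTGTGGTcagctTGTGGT
CNN2P9, chr6:110859443-110859543: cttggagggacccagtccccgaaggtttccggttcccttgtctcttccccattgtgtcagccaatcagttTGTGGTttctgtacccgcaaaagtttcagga
ENSG00000234147 (unnamed lncRNA), chr6:140897942-140898042: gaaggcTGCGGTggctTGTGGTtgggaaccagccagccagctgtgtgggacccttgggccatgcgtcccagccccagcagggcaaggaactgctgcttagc
SENCR, chr11:128696021-128696121: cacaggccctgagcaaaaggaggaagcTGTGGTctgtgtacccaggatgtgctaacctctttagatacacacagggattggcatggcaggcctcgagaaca
ZNF500, chr16:4767262-4767291: cgcgacgtgcacTGTGGTtaaTGTGGTcct
GTF2A2, chr15:59657493-59657522: gccgccgcagaaACCGCAgaactgagctga
ANXA5, chr4:121697046-121697146: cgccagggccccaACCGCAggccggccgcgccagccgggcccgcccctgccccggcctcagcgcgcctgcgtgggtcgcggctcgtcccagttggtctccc
PIK3CD, chr1:9629754-9629854: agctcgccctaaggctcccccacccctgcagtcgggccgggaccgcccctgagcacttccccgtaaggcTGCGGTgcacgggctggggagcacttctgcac
TAL1, chr1:47231805-47231905: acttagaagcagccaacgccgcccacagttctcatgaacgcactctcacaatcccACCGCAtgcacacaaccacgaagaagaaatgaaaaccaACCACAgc
CD300A, chr17:74466265-74466365: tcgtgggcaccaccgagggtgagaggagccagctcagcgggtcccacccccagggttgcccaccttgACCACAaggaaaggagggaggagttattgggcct
SELPLG, chr12:108633901-108633930: aggaagcgagaaTGTGGTtacttaggcagg
PTPN12, chr7:77537000-77537100: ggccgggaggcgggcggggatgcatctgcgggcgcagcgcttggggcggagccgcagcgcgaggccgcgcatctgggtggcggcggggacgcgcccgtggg
CFP and ZNF500 carried 2 copies of TGTGGT, and TAL1 and the unnamed lncRNA carried a copy of each form. GTF2A2, ANXA5 and PIK3CD carried TGCGGT, the form that contains a CpG. The PTPN12 window held no copy and 17 CpG dinucleotides, at a GC content of 82.2%.

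Peak strength was given by the fold enrichment at the summit, the fragment pileup over the local background as the authors' peak caller reported it. The median fold enrichment of the 911 regions was 11.3 (quartiles 9.02 and 15.0), and the values ran from 1.22 to 104.5. Peaks at a start site that overlapped a PTBP1 peak had a median of 17.3, and RUNX1-only peaks elsewhere had a median of 13.5. A whole number of fragments at each summit was recovered from the fold enrichment and its significance, with a median of 15 (quartiles 12 and 22) in the RUNX1-only start-site regions. The corresponding medians were 23 for PTBP1-overlapping peaks at start sites and 17 for RUNX1-only peaks elsewhere. In all, 207 regions (22.7%) rested on 8 to 11 fragments, against 8.36% of the PTBP1-overlapping start-site peaks. A PTBP1 peak needed at least 11 fragments and a RUNX1 peak at least 8, on usual backgrounds of 0.72 and 0.33 fragments. A lack of PTBP1 and a PTBP1 signal below that limit cannot be told apart from the peak lists.

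At the upper end, 114 regions (12.5%) reached a fold enrichment of at least 20 and 8 reached at least 50. Over all 911 regions the median width was 526 bases (quartiles 385 and 737.5). Another 74 regions (8.12%) lay on a background above 1.5 times the usual level, against 4.54% of PTBP1-overlapping start-site peaks, and their median fold enrichment was 8.20. The most extreme was a 365-base peak at MTND6P4 and MTCYBP18 on chromosome 5, both pseudogene copies of mitochondrial sequence, where 3518 fragments stood on a background of 2881.5 and gave a fold enrichment of 1.22.

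**Figure D1:**
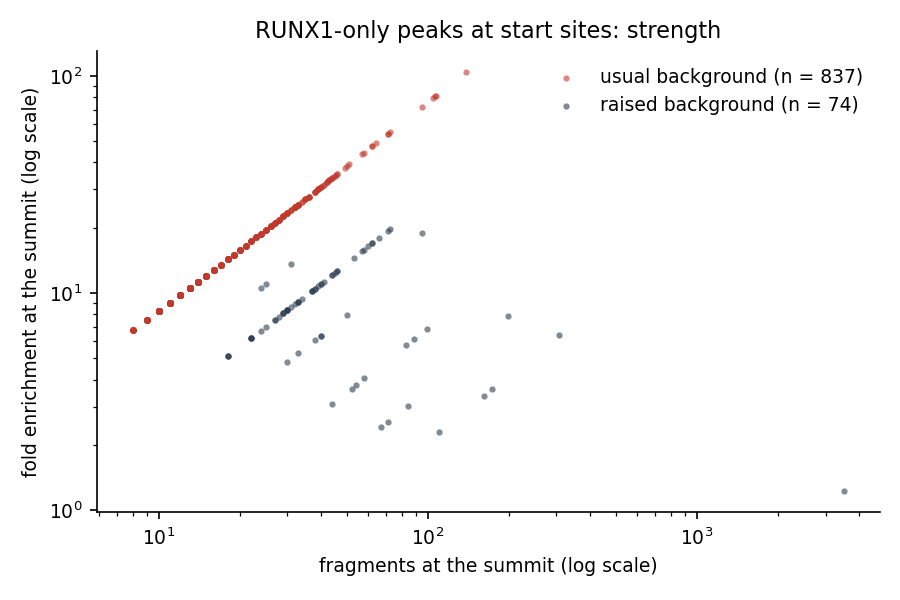
Fold enrichment against fragments at the summit, both on log scales, for the 911 RUNX1-only regions at start sites, with 1 point per region. The 837 regions on the usual background form a single line, since fold enrichment there depends only on the fragments, and the 74 on a raised background lie below it.

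The strongest regions were described next, with their genes and positions (hg38). The region of highest fold enrichment, 104.5 from 138 fragments, lay on chromosome 8 (chr8:143025153-143027157) with its summit 570 bases upstream of an unnamed unitary pseudogene and carried 2 copies of TGCGGT. The next, at 81.2 from 107 fragments, had its summit in intron 2 of SETBP1 (chr18:44733042-44734231), 1034 bases downstream of the start of an unnamed gene. SETBP1 encodes a SET-binding protein that is recurrently mutated in myeloid neoplasms. A region of 80.5 covered the starts of IGFBP7, which encodes a secreted insulin-like growth factor binding protein, and of an unnamed lncRNA (chr4:57109848-57111526). Another lncRNA, IGFBP7-AS1, started outside the peak, 996 bases from the summit. The summit was 373 bases upstream of IGFBP7, in a CpG-rich window without the motif.

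CNN2P9, a calponin pseudogene, followed with 78.9 (chr6:110858976-110860303), and an unnamed lncRNA on chromosome 10 with 72.2 (chr10:112227148-112228104). CFP encodes properdin, the positive regulator of the alternative complement pathway made by myeloid cells. Its region had a fold enrichment of 54.9 from 72 fragments (chrX:47629794-47630909), with the summit 64 bases upstream of the start. SIGLEC29P, a pseudogene of the sialic acid-binding lectins, and an unnamed lncRNA on chromosome 6 both had 54.1. SENCR is a lncRNA transcribed from intron 1 of FLI1, an ETS factor gene. Its region reached 47.4 from 62 fragments (chr11:128695669-128696474), 48 bases upstream of the SENCR start, and the nearest PTBP1 peak began 735 bases away.

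Among coding genes, ZNF500, a zinc finger gene, had 47.4 (chr16:4766582-4767738), and MAGEF1, a melanoma antigen family gene, had 43.6 with the summit in coding exon 1. GTF2A2, the small subunit of the general transcription factor TFIIA, had 39.1 with the summit 12 bases downstream of its start. PTPN12, a protein tyrosine phosphatase, had 37.6, and ALCAM, an adhesion molecule, had 35.3 with the summit in intron 1. C5orf34 also had 35.3, with the summit in exon 1 of the 5′ UTR. GNA11, a G protein alpha subunit, and RAB3GAP1, a GTPase-activating protein, each had 34.6. The strongest also included an unnamed processed pseudogene on chromosome 1 at 44.4 and an unnamed lncRNA on chromosome 11 at 38.3. Of the 20 strongest regions, 9 had no coding gene start within 1 kb, 8 were CpG-rich and 16 carried the RUNX motif, of which 10 held TGTGGT and 8 held TGCGGT.

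The positions of the summits within the 1 kb window were not fixed by the selection. The start-site base itself lay inside the peak in 585 regions (64.2%), against 80.4% of the PTBP1-overlapping start-site peaks, which were wider at a median of 785.5 bases. Summits lay within 200 bases of the nearest gene start in 57.4% of the regions (95% Wilson interval 54.2 to 60.6) and in 59.2% of PTBP1-overlapping peaks (57.5 to 60.9). The difference of -1.79 percentage points did not pass the test (Fisher's exact test, two-sided and adjusted by Benjamini-Hochberg over 8 tests, as for all below, odds ratio 0.929, p = 0.341). Among peaks 400 to 800 bases wide in both groups the difference was -5.18 points (exact test, adjusted p = 0.0449). The median signed position was 25 bases downstream (quartiles -105.5 and 225.5), and 56.2% of summits lay at or downstream of the start, against 50.4% in PTBP1-overlapping peaks. Against the canonical transcripts, 18.2% of summits were in a 5′ UTR, 24.9% in an intron (18.7% in intron 1), 9.77% in a noncoding exon, 5.82% in a coding exon and 0.768% in a 3′ UTR. The remaining 40.5% lay outside every canonical transcript, and 74.4% of all summits were inside the outer bounds of an annotated gene.

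**Figure D2:**
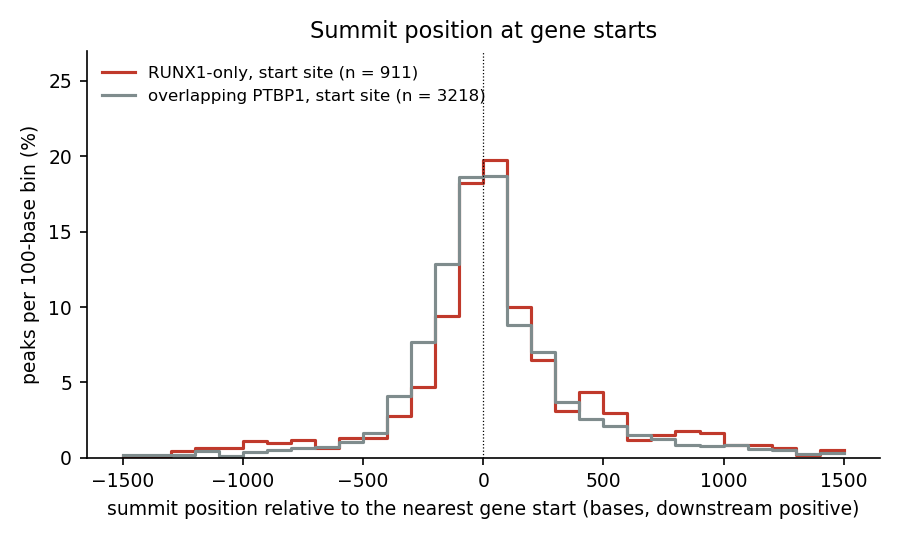
Share of peaks in 100-base bins of summit position relative to the nearest gene start (downstream positive), for RUNX1-only regions (n = 911) and PTBP1-overlapping peaks (n = 3218) at start sites. Both are highest in the bins next to the start, where the RUNX1-only regions reach 18.2% and 19.8%. Summits beyond 1500 bases are not drawn.

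The genes at these start sites differed in type from those under PTBP1-overlapping peaks. A protein-coding gene started within 1 kb of 716 regions (78.6%, 75.8 to 81.1), against 88.3% (87.2 to 89.4) of PTBP1-overlapping start-site peaks. The difference was -9.72 points (odds ratio 0.486, adjusted p by the exact test = 9.16e-13). Of the 195 regions with no coding start, 145 were at a lncRNA, 22 at a pseudogene, 19 at a small RNA gene and 9 at other types. Divergent pairs of gene starts, pointing apart at most 1000 bases from each other, were under 162 regions (17.8%) against 23.1% (difference -5.31 points, odds ratio 0.720, exact test, adjusted p = 6.41e-04). CpG-rich windows, with a GC content of at least 50% and an observed over expected CpG ratio of at least 0.6 within 250 bases of the summit, held 676 summits (74.2%, 71.3 to 76.9) against 87.5% (86.3 to 88.6). That difference was -13.3 points (odds ratio 0.412, exact test, adjusted p = 2.51e-20). All 3 differences kept their direction and passed the test among peaks of 15 to 30 times fold enrichment in both groups, at -17.6, -8.08 and -22.4 points.

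In all, 1262 genes of any type started within 1 kb of a region, among them 808 coding genes, or 4.03% of the 20033 annotated coding genes. A PTBP1-overlapping RUNX1 peak was found at the start of 3470 coding genes, or 17.3%. Of the 808 genes, 23 also had a PTBP1 peak and 12 a PTBP1-overlapping RUNX1 peak within 1 kb of the same start. Across the gene body extended by 1 kb, 97 of the 808 (12%) had a PTBP1 peak, against 34.3% of the coding genes without a region. This share is partly set by the selection, which excluded PTBP1 peaks overlapping the region. The distance from a region to the nearest PTBP1 peak had a median of 115231 bases (quartiles 34021.5 and 348550). It was at most 1 kb for 32 regions (3.51%) and at most 100 kb for 422 (46.3%).

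The peaks nearest to the limits of the selection are given as a description. Just inside the 1 kb limit were a region 999 bases from the start of PLEKHA8 (fold enrichment 7.52) and a region 992 bases from an unnamed lncRNA on chromosome 11 (9.77). RUNX1-only peaks just outside it were 1009 bases from HES1 (15.8) and 1010 bases from ITGB7 (11.3). The regions closest to a PTBP1 peak without overlap were those at CAMTA2, with a gap of 7 bases (6.77), and at VLDLR, with a gap of 46 bases (15.0). On the other side, the smallest overlaps were 36 bases at FCHO2 (9.02) and 51 bases at an unnamed gene on chromosome 1 (8.27).

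To determine which lineage and metabolic genes had such a region, lists of known genes were counted. Among 40 myeloid surface receptors and antigens, 5 had a RUNX1-only region at the start (12.5%, against 4.03% of all coding genes) and 3 had a PTBP1-overlapping peak (7.5%, against 17.3%). SELPLG, the P-selectin ligand, was the strongest of the 5, with 58 fragments, a fold enrichment of 15.9 on a raised background and its summit 15 bases inside the gene in exon 1 of the 5′ UTR (chr12:108633670-108634503). FCER1G, the shared signalling chain of Fc receptors, had 14.3 from 18 fragments, 9 bases downstream of its start (chr1:161214879-161215293). ITGAM, the integrin chain CD11b of monocytes and granulocytes, had 11.3 from 14 fragments and no motif, 66 bases upstream of its start (chr16:31259864-31260254). SPN, the sialoglycoprotein CD43, had 10.2 on a raised background in intron 1. CD300A, an inhibitory receptor, had 9.77 from 12 fragments. Of the 5, FCER1G, SELPLG and CD300A carried TGTGGT and none was in a CpG-rich window.

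Leukocyte signalling genes had 6 of 40 with a RUNX1-only region (15.0%, against 4.03% of all coding genes). A PTBP1-overlapping peak was at 8 of them (20%), near the 17.3% of all coding genes. PIK3CD, the leukocyte phosphoinositide 3-kinase delta catalytic subunit, was the strongest, at 18.8 from 24 fragments, 85 bases upstream of its start (chr1:9629638-9630299). INPP5D, the phosphatase SHIP1, had 9.77 from 12 fragments, and WAS, the actin regulator of Wiskott-Aldrich syndrome, had 9.02 from 11. DOCK2, a Rac activator, had 8.27 from 10, and the kinase TYK2 had 7.52 from 9. Of all 6 only PIK3CD carried the motif, and 4 of the others were in CpG-rich windows.

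Hematopoietic transcription factor genes had 3 of 40 (7.5%) with a RUNX1-only region, against 4.03% of all coding genes. A PTBP1-overlapping peak was at 13 (32.5%), against 17.3%, among them MYB, CEBPD and GFI1. The RUNX1-only share rests on 3 genes, and neither share was tested against that of all coding genes. TAL1, a basic helix-loop-helix factor of stem and erythroid cells, had 16.5 from 21 fragments, with its summit in intron 1, 370 bases inside the gene (chr1:47231627-47232303). IKZF1, the zinc finger factor Ikaros, had 10.5 from 13 fragments, 529 bases downstream of the annotated gene start, and KLF4 had 8.27 from 10 fragments. The nearest PTBP1 peak was 2215062 bases from the IKZF1 region and 81309 bases from the TAL1 region.

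In the cytokine and receptor list, 3 of 40 genes (7.5%) had such a region: IL10RA, the interleukin-10 receptor chain (13.5 from 17 fragments), TGFBR1, a receptor kinase of TGF-beta (12 from 15), and TGFB1 itself (9.02 from 11). All 3 were CpG-rich and without the motif. Among 20 granule proteins, RNASE2, the eosinophil-derived neurotoxin, had a region (30.1 from 39 fragments, 29 bases upstream, no motif), and ELANE, AZU1, CTSG and BPI had a PTBP1-overlapping peak. None of 35 lymphoid and erythroid markers had a RUNX1-only region and 1 (2.86%) had a PTBP1-overlapping peak. Over all coding genes the shares were 4.03% and 17.3%, and at these list sizes the granule count (5%) and the count of 0 lie near the former.

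Glycolysis and splicing factor genes lay close to or under the background for RUNX1-only regions. Of 27 glycolysis genes only PFKFB3, which makes the activator of phosphofructokinase, had one (9.02 from 11 fragments), and a PTBP1 peak lay 61 bases away at the same start. By contrast, 13 glycolysis genes (48.1%) had a PTBP1-overlapping peak. Of 35 splicing factor genes, SRSF3 had a RUNX1-only region (6.72 on a raised background) and 19 (54.3%) had a PTBP1-overlapping peak. Of the genes central to the study, RUNX1, PTBP1 and PTBP2, the glycolysis genes PKM, HK2 and SLC2A1, and ID1 had no RUNX1-only region at their starts. PKM, SLC2A1 and PTBP1 had a PTBP1-overlapping peak there. ID1 had a PTBP1 peak but no RUNX1 peak within 1 kb of its start, and HK2, PTBP2 and RUNX1 had neither. The paper reports both factors together at ID1 and HK2 from signal tracks over the loci, a measure other than called peaks at the start. The gene lists above are small, and their shares are counts without a test.

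**Figure D3:**
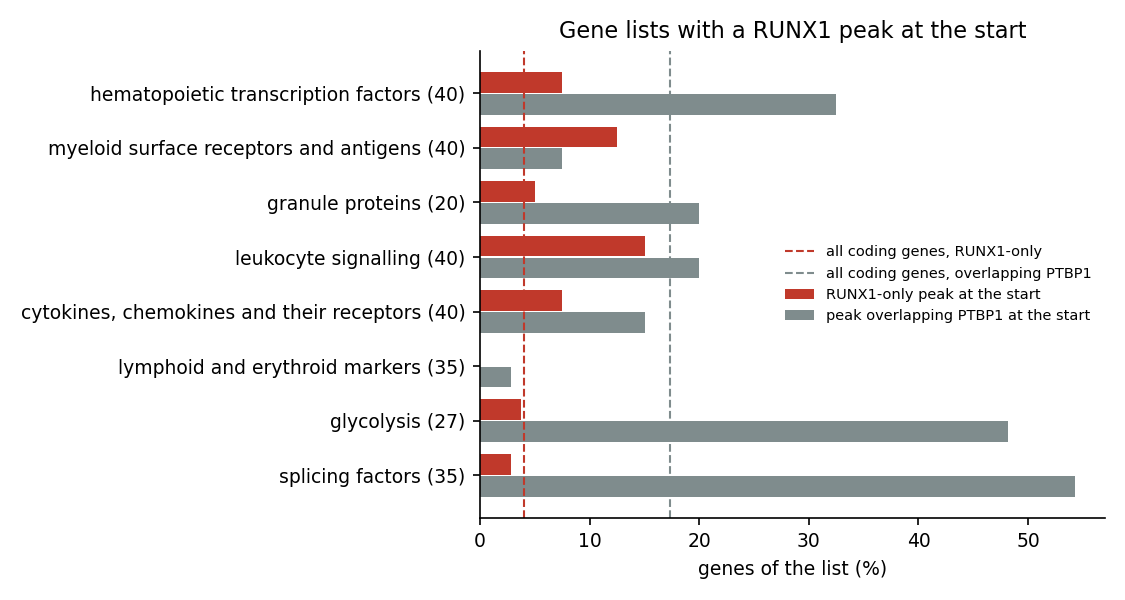
Percent of the genes of each list with a RUNX1-only region or a PTBP1-overlapping RUNX1 peak within 1 kb of the gene start, with the number of genes in parentheses and dashed lines at the share of all coding genes (4.03% and 17.3%). RUNX1-only shares are highest for leukocyte signalling (15.0%) and myeloid surface genes (12.5%), and PTBP1-overlapping shares for splicing factors (54.3%) and glycolysis (48.1%).

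The sequence under the summits was compared with sequence nearby, since DNA sequence took no part in the selection. The RUNX motif lay within 50 bases of the summit in 223 of 911 regions (24.5%, 95% Wilson interval 21.8 to 27.4). In windows of the same length centred 500 bases to the left it was found in 6.70% (5.25 to 8.51). The motif was at the summit alone in 201 regions and in the flank alone in 39 (two-sided exact sign test, adjusted p = 7.40e-27). Among regions in CpG-rich windows, TGTGGT was at 5.33% of summits and 4.14% of flanks, and TGCGGT at 12.9% and 2.07%. Among the other regions the shares were 34.0% and 7.23% for TGTGGT and 14.0% and 1.28% for TGCGGT. The part of local base composition in these differences was not tested. By distance, the share of regions with a motif was 13.6% and 13.8% in the 50-base bins on either side of the summit and 5.38% and 4.39% in the outermost bins, 200 to 250 bases away. A motif lay within 250 bases in 509 regions, and the nearest was at a median of 56.5 bases. Single copies were found in 181 windows, 2 copies in 41 and 6 copies in 1, which gives 269 occurrences. Of these, 153 (56.9%) were on the strand of the nearest gene.

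**Figure D4:**
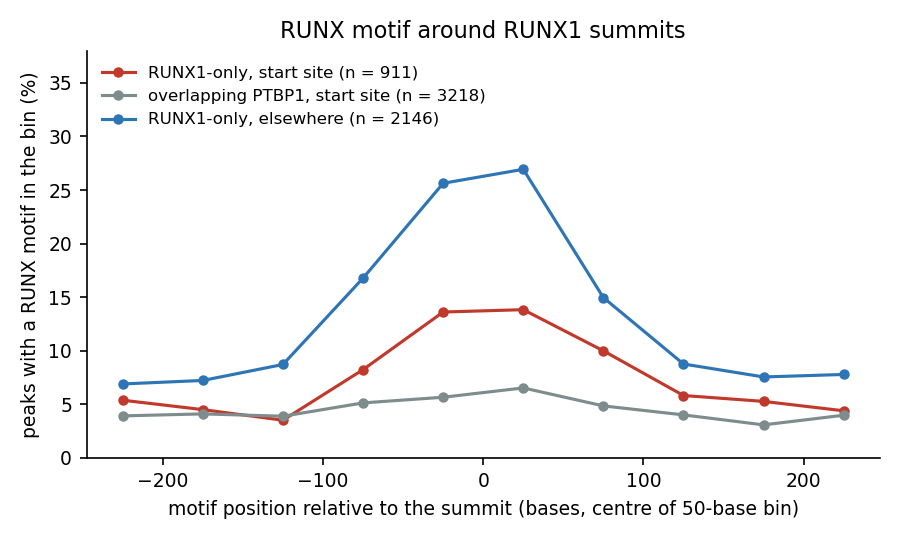
Percent of peaks with a RUNX motif centred in each 50-base bin around the summit, in genome orientation, for RUNX1-only regions at start sites (n = 911), PTBP1-overlapping peaks at start sites (n = 3218) and RUNX1-only peaks elsewhere (n = 2146). The RUNX1-only start-site regions rise to 13.8% beside the summit, between the 6.53% of PTBP1-overlapping peaks and the 26.9% of RUNX1-only peaks elsewhere.

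The motif was more frequent than at start sites with a PTBP1 peak and less frequent than away from start sites. PTBP1-overlapping start-site peaks held it in 11.4% (10.3 to 12.5), a difference of 13.1 points (odds ratio 2.53, exact test, adjusted p = 7.18e-21). Among peaks of 15 to 30 times fold enrichment in both groups the shares were 36.8% and 11.7%, a difference of 25 points (exact test, adjusted p = 4.56e-17). RUNX1-only peaks elsewhere held it in 45.1% (43.0 to 47.2), a difference of -20.6 points (odds ratio 0.395, exact test, adjusted p = 7.40e-27). The latter difference moved with CpG content. Within CpG-rich windows the share was 17.6% in the start-site regions and 24.0% in 154 peaks elsewhere (-6.42 points, exact test, adjusted p = 0.0781), and outside them it was 44.3% and 46.7% (-2.43 points, adjusted p = 0.490). The excess over PTBP1-overlapping start-site peaks remained in both strata, at 7.12 points in CpG-rich windows (exact test, adjusted p = 1.10e-06) and 26.6 points outside them (adjusted p = 9.88e-13).

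Motif frequency followed peak strength within the regions. The top 25% by fold enrichment, with ties at the limit kept in both groups, held it in 40.6% of 251 regions (34.7 to 46.8), against 11.6% of 250 (8.20 to 16.2) in the bottom 25% (29.0 points, odds ratio 5.22, exact test, adjusted p = 1.24e-13). From 8 to 11, 12 to 15, 16 to 22 and over 22 fragments, the share was 11.1%, 18.1%, 27.1% and 42.5%. In PTBP1-overlapping start-site peaks of the same fragment classes it was 5.95%, 8.17%, 11.2% and 13.4%. Regions with the motif had a median fold enrichment of 14.3, and 53.4% were CpG-rich. Those without it had a median of 10.5, and 81.0% were CpG-rich. Regions with no coding gene start carried it in 39.0% of 195 cases and coding starts in 20.5% of 716, while 31.3% of the former and 85.9% of the latter were CpG-rich.

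The 2 forms of the motif were distributed differently. TGCGGT, which contains a CpG, was found in 13.2% of the regions, 1.87% of flanks, 6.56% of PTBP1-overlapping start-site peaks and 9.18% of RUNX1-only peaks elsewhere. TGTGGT was found in 12.7%, 4.94%, 5.16% and 37.8%. Against RUNX1-only peaks elsewhere, the regions therefore had more TGCGGT (3.99 points, exact test, adjusted p = 0.00133, chosen after seeing the data) and less TGTGGT (-25.1 points, adjusted p = 9.53e-47). Within CpG-rich windows 12.9% of the regions held TGCGGT and 5.33% TGTGGT, and outside them 14.0% and 34.0%. In RUNX1-only peaks elsewhere TGTGGT was at 13.6% within CpG-rich windows and at 39.7% outside them, so its difference was smaller inside either stratum than over all peaks, and it was not tested there. Among the 264 occurrences with 2 further bases inside the window, the most frequent extensions were TGCGGTGG with 31 and TGTGGTTT with 29. After the core, TT followed in 17.4% and GG in 15.9%.

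**Figure D5:**
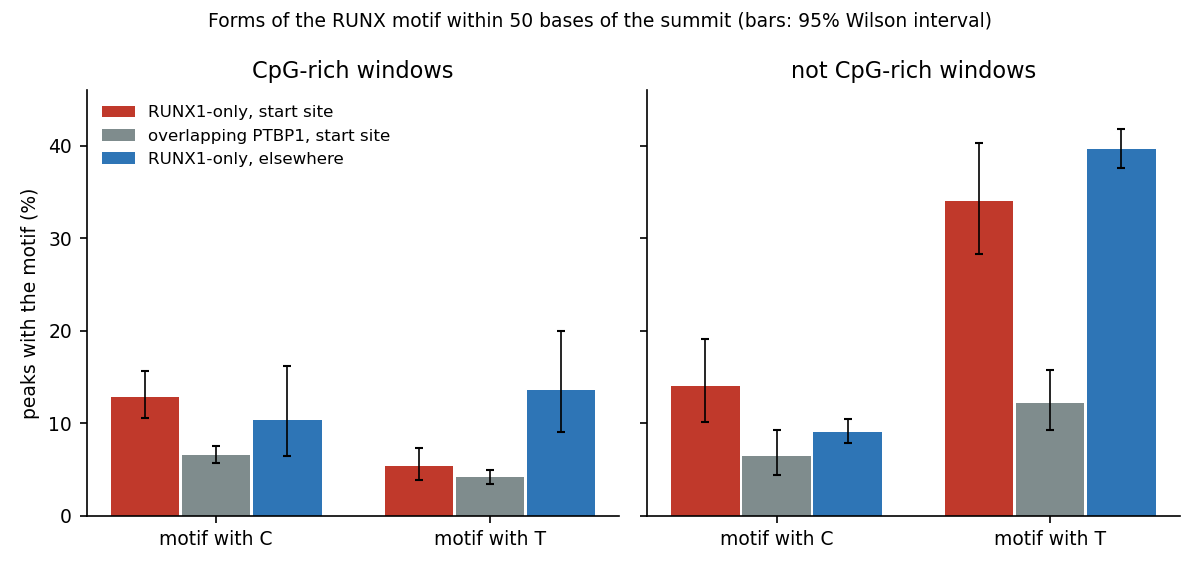
Percent of peaks with TGCGGT (motif with C) or TGTGGT (motif with T) within 50 bases of the summit, in CpG-rich windows and in the others, for the same 3 peak classes. Error bars are 95% Wilson intervals. In the RUNX1-only start-site regions the C form stays near 13% to 14% in both panels, and the T form goes from 5.33% to 34.0%.

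Other short sequences were searched for comparison, of which 4 out of 10 differed between summits and flanks (two-sided exact sign tests, Benjamini-Hochberg over the 10). The GC box, GGGCGG, was at 35.5% of summits and 15.8% of flanks (exact test, adjusted p = 2.64e-22), with 44.3% in PTBP1-overlapping start-site peaks and 5.92% in RUNX1-only peaks elsewhere. The ETS core, CCGGAA or AGGAAG, was at 19.1% and 12.1% (exact test, adjusted p = 2.17e-04), a difference that fell to 2.74 points against the right flank (adjusted p = 0.231). TTNNGNAA, a sequence of CEBP factors, was lower at summits, 8.45% against 15.6% (exact test, adjusted p = 1.67e-05), as was AGATAA of GATA factors, 1.43% against 5.16% (adjusted p = 4.05e-05). AP-1 (TGANTCA), the E-box (CANNTG), CCAAT, YY1 (AANATGGC), NRF1 and CTCF did not pass, with differences between -3.51 and 0.988 points. Of all 2080 words of 6 letters, counted with their reverse complements, 196 (9.42%) were more frequent at summits and 309 (14.9%) less frequent, at a Benjamini-Hochberg adjusted p under 0.05 in the sign test. These counts are against the left flank. Against both the left and the right flank, 358 words passed in the same direction. CCGCCC, the complement of the GC box, came first by p, and ACCGCA, the minus-strand form of TGCGGT, came second. Other GC-rich words followed closely. CCCCGC was at 33.4% of summits and 15.0% of flanks, CCCGCC at 34.7% and 17.3%, and CGGGGC at 27.1% and 11.6%. AAAAAA was at 2.74% of summits and 12.2% of flanks. GATA and CEBP sequences are AT-rich, while the GC box and the words that came first are rich in G and C. The part of base composition in all these differences was not tested.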

How the data were processed

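PTBP1 and RUNX1 chromatin binding in MOLM-13 cells was analysed from 2 deposited peak lists. According to the methods and the labels, adapters were trimmed, read pairs were aligned by the authors to hg38 (Bowtie2), low mapping qualities and duplicates were filtered out, and MACS3 called peaks with a q-value limit of 1e-07. The lists name a target but no assay or replicate, and whether replicates were pooled is not given in the sources used here. The deposited fold enrichment is a ratio of summit pileup to background, each with 1 added. The deposited −log10 p-value and −log10 q-value, the deposited score (10 times −log10 q) and the deposited summit offset are also the authors' values. Depth per library was not analysed here, so precision rests on the fragments at each summit.

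Whole fragments and background were solved from both of these values. Gene starts were those of GENCODE version 44 on chromosomes 1 to 22, X and Y, and overlap required 1 base. RUNX1-only regions were compared with RUNX1 peaks that overlap a PTBP1 peak at start sites and with RUNX1-only peaks elsewhere, by two-sided Fisher's exact tests, and with flanks by an exact sign test. P-values were adjusted by Benjamini-Hochberg over 8 comparisons, over the 10 other motifs or over the 2080 words. They compare peaks of these lists, without any measure of how cultures vary, neighbouring peaks are not independent, and intervals cover counting error only.

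Named genes were those at the 20 regions of highest fold enrichment, all listed genes with a region, 7 genes named by the study, and the peaks closest to each limit, apart from some items that are not reported here. The pseudogenes at the region of highest background were named after its values were seen. The regions and lists were chosen with earlier results of these data known. Alternatives changed the q threshold, overlap, start-site window, background, motif, window, flank, strength, width and CpG content. The restriction to TGCGGT was chosen after seeing the data. Procedures were tested on simulated data, where 500 of 500 planted motifs, 76 of 76 pileups and 300 of 300 planted overlaps were recovered. The tools were scipy 1.17.1, pysam 0.24.0, pandas 2.3.3, numpy 2.4.6 and matplotlib 3.10.9 under Python 3.11.15.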

Additional observations from a re-analysis of the deposited data

Results flagged for a closer look

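RUNX1-only and PTBP1-overlapping peaks at start sites differed in how much more often the motif occurred under summits than in flanks. The excess was 17.8 points in the former and 4.47 points in the latter, a difference of 13.3 points. Among the RUNX1-only regions 201 held the motif under the summit alone and 39 in the flank alone, and among the PTBP1-overlapping peaks 341 and 197 did (odds ratio 2.98, p = 4.41e-09 by an exact test of these 4 counts). Median fragments also differed, at 15 and 23, and their part in the difference was not tested.

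A raised local background was found under 74 of the RUNX1-only regions, a value that no test used as its outcome. The RUNX motif was in 27% of these 74 and in 24.3% of the other regions, and 66.2% and 74.9% were CpG-rich.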

How the results depend on the processing

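No paired analysis was possible because the peak lists carry no replicate. The number of regions was 585 when the start-site base had to lie inside the peak, and between 716 and 1041 under the other 6 alternatives. The deficit of the RUNX motif against RUNX1-only peaks elsewhere missed the threshold within CpG-rich windows (-6.42 points, exact test, adjusted p = 0.0781) and outside them (-2.43 points, adjusted p = 0.490), and with TGCGGT alone it turned to an excess of 3.99 points (adjusted p = 0.00133). The share of summits within 200 bases of a start passed the threshold among peaks 400 to 800 bases wide (-5.18 points, exact test, adjusted p = 0.0449). With windows of 25 bases either side, 2 of the other motifs passed and not 4, and ETS (2.52 points, exact test, adjusted p = 0.0908) and GATA (-1.54 points, adjusted p = 0.0810) no longer did. The E-box passed with windows of 100 bases (-5.16 points) and against the right flank (-7.24 points). The other 73 alternatives of the main comparisons kept their side of the threshold, or stayed within 1.5 times the count. Among them, the share of summits within 200 bases of a start changed direction when only protein-coding genes were used. It was then 57.5% in the regions and 55.9% in PTBP1-overlapping peaks (1.67 points, exact test, adjusted p = 0.448). The cause of the changes was not tested. Regions of 8 to 11 fragments set the limit of what the RUNX1 list could call, and weaker sites of either target are not in these lists.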

Other observations

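Regions at small RNA genes included RNU5B-3P, a pseudogene of the U5 spliceosomal RNA (fold enrichment 33.8 from 44 fragments), and TERC, the telomerase RNA (10.5 from 13 fragments, with the summit 36 bases into a small RNA annotation at the same place). A region at MIR1915 and its host gene MIR1915HG had 21.8 from 28 fragments and carried TGCGGT. These genes were chosen after their values were seen.

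Among coding genes of blood cells outside the lists, CD38, an ectoenzyme of activated and progenitor cells, had a region in an intron with TGTGGT, 838 bases downstream of its start. MS4A3, a granulocyte progenitor gene, had a summit 5 bases from its start, and S100A12, a neutrophil calcium-binding protein, 26 bases upstream. Neither of the latter 2 windows held the motif. They too were chosen after their values were seen.

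The RUNX1-only regions were spread over the chromosomes differently from the PTBP1-overlapping start-site peaks, as a description without a test. Chromosome 19 held 3.40% of the former and 9.29% of the latter, with 4.91% of annotated genes, and chromosome 17 held 4.39% and 8.27%. Chromosome 3 held 7.35% and 3.98%.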
